A study of Homo sapiens with 4 samples.

Results

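The genes described here encode the working parts of the lysosome: the proton pump that acidifies it, the cathepsins and other hydrolases that degrade its content, and the proteins of its limiting membrane. The list has 52 named genes, named for their known place in the organelle by a rule that uses no measured value, though with earlier results of these data known, and 50 of them were found by symbol among the 17755 genes of the expression table. These 50 genes comprise 14 subunits or accessory proteins of the vacuolar H+-ATPase (V-ATPase), 8 cathepsins, 18 other hydrolases and lumenal proteins, and 10 membrane proteins. The expression of ATP6V0C and IFI30 was not analysed here, and they enter only the counts of promoter motifs.

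SK-MEL-28 and A375, both established human melanoma cell lines, were transfected either with siLINC00622, an siRNA that targets the long noncoding RNA LINC00622, or with the control siNC. After 6 h without serum the cells were kept for 24 h in DMEM with serum, and poly(A) RNA was sequenced in 4 libraries, 1 per condition, to find transcripts that differ after loss of LINC00622. The sample labels name melanoma tissue as the source beside the cell line, and which of the designed siRNAs was used for sequencing is not given in the sources used here. Library totals were between 31269923 and 36384819 counts, and all 50 genes had at least 10 counts in each line, from 53 counts (CTSS, SK-MEL-28 siLINC00622) to 34661 counts (CD63, in the same library).

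Lysosomes are acidic organelles in which proteins, glycans and lipids delivered by endocytosis and autophagy are broken down. The V-ATPase couples ATP hydrolysis in its cytosolic V1 sector to proton transport through its membrane V0 sector, and most hydrolases need the resulting low pH. Transcription factors of the MiT/TFE family (MITF, TFEB, TFE3) bind elements with the core CACGTG upstream of many lysosomal genes, and in pigment cells MITF also drives the melanosome, an organelle related to the lysosome.

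The target was checked first. LINC00622 had 309 counts in the SK-MEL-28 siNC library and 135 in the siLINC00622 library, and 135 against 86 counts in A375. Counts were scaled by the TMM method (trimmed mean of M values) within each line, and the log2 ratio of siLINC00622 over siNC was -1.21 in SK-MEL-28 (95% counting interval -1.53 to -0.93) and -0.84 in A375 (-1.27 to -0.46). The counting interval covers the sampling of reads only. It holds no variation between cultures, because each condition has 1 library. The spread between cultures therefore cannot be estimated within a line, and a test there needs an assumed spread.

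Most lysosomal genes were higher in the siLINC00622 library of both lines, by small amounts. In SK-MEL-28, 35 of the 50 genes had a log2 ratio above 0 (49.5% of all genes did) with a median of 0.14, against a median of -0.004 over all genes. In A375, 42 of the 50 were above 0 (50.7% of all genes), with a median of 0.23 against 0.004. The counting interval lay wholly above 0 for 32 genes in SK-MEL-28 (22.9% of all genes) and for 40 in A375 (23.8%), and wholly below 0 for 9 genes in SK-MEL-28 (24%) but only 2 in A375 (22%). In bulk RNA, less RNA per cell and fewer cells of a kind cannot be told apart.

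Differences past 1.5-fold were rare. In SK-MEL-28 they were reached by CTSL and SGSH, both higher (4.56% of all genes were past this fold upwards and 6.49% downwards), and in A375 by 0 of the 50 genes in either direction (4.52% and 4.34% of all genes). At a fold midway between 1 and 1.5, the count was 14 higher (13.5% of all genes) and 1 lower (16%) for SK-MEL-28, and 17 higher (13.4%) and 0 lower (13%) for A375. The criteria of the study, a fold change above 1.5 with p below 0.05, were applied with edgeR's exact test at a dispersion of 0.1. This dispersion was set and not estimated, since each condition has 1 library. By these criteria LINC00622 itself passed in neither line. Of the 50 genes, 0 passed in SK-MEL-28 (0.608% of all genes) and 0 in A375 (0.304%). CPM are counts scaled to the library size after TMM over the 4 libraries together, whereas the ratios use TMM within each line. In A375 the ratios are therefore slightly lower than the printed CPM would give. The sum of the 50 genes was 9457 CPM in SK-MEL-28 siNC and 10759 in SK-MEL-28 siLINC00622, and 3463 and 4182 in the A375 libraries. As a share of all counts, this was 0.895% and 1.01% in SK-MEL-28 cells and 0.371% and 0.439% in A375.

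The directions in both lines were then set side by side. Of the 50 genes, 33 were higher with siLINC00622 in both lines (30.9% of the 14721 genes with enough counts in both), and 6 were lower in both (4606 of the 14721). A further 9 were lower in SK-MEL-28 but higher in A375 (2896 of the 14721), and 2 showed the reverse (2670 of the 14721). For 29 genes both counting intervals lay above 0 (11% of genes), and for GUSB alone both lay below 0 (11.9%).

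**Figure D1:**
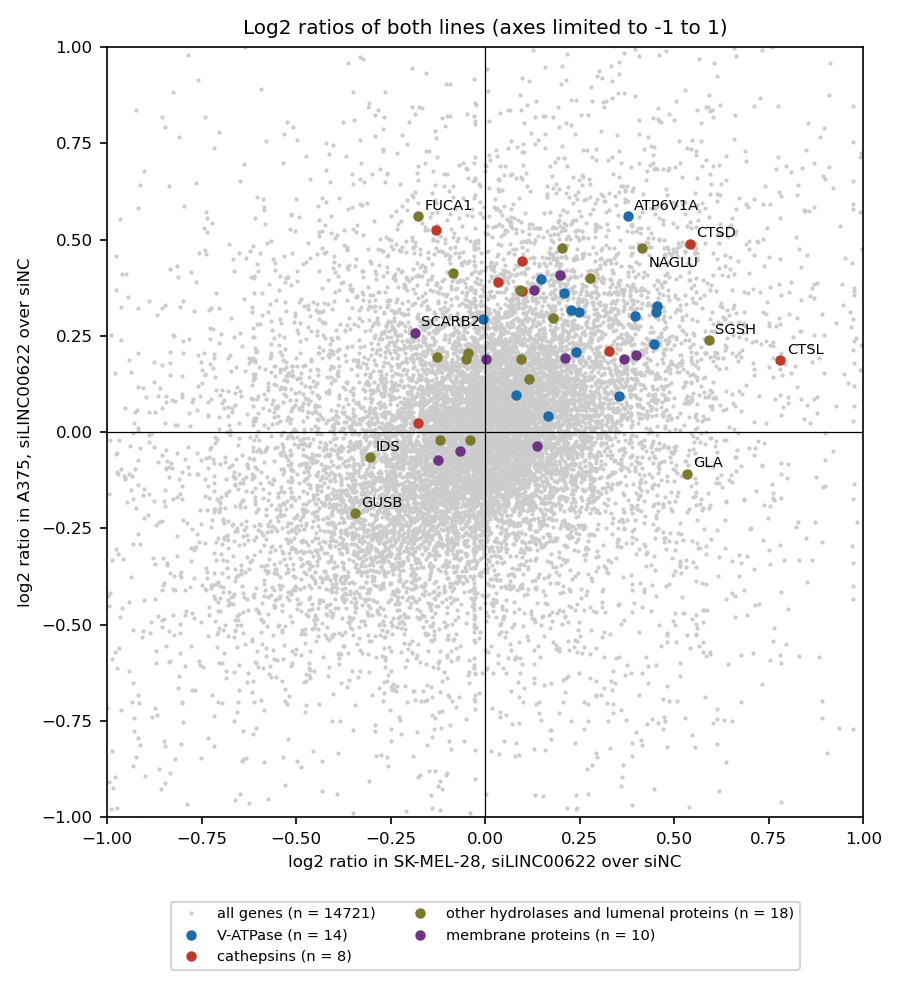
Log2 ratio of siLINC00622 over siNC in SK-MEL-28 (horizontal axis) and in A375 (vertical axis), with 1 point per gene. Grey points are the 14721 genes with enough counts in both lines, of which 508 lie outside the axes, and coloured points are the 50 lysosomal genes by group. The upper right corner holds 33 of the 50.

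An additive edgeR quasi-likelihood fit with the cell line as a block was used to test the treatment over both lines. Its only replication is the agreement of the lines, with 1 residual degree of freedom. Of the lysosomal genes, 0 passed an adjusted p of 0.05 (Benjamini-Hochberg, over 16742 genes), in either direction, whereas 33 genes of all were called higher (0.197%) and 42 lower (0.251%). The lowest adjusted p among the 50 was 0.0668, for CTSD. LINC00622 itself had an adjusted p of 0.101 in this edgeR fit. At an unadjusted p under 0.05, 24 of the 50 were higher (7.41% of all genes) and 1, GUSB, was lower (7.11%). The fitted log2 fold change was above 0 for 43 of the 50, with a median of 0.23 against 0.01 over all genes. Other tools called more genes in all. DESeq2 called 2 of the 50 higher, CTSD (adjusted p = 0.000295) and ATP6V1A (adjusted p = 0.00764), with 1.6% of the 8952 genes it adjusted called higher and 1.81% lower, and limma-voom called 1 higher, CTSD (adjusted p = 0.0455), with 0.346% of all genes called higher and 0.329% lower.

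The promoters of these genes are shown because many of them carry the same motif. In RefSeq promoter windows of GRCh38.p14, from 250 bases before to 50 bases after a transcription start, 36 of the 52 genes had a window. The palindrome CACGTG, which reads the same on both strands, was found in 14 of the 36 (38.9%), against 8.77% of 27305 genes. Its longer form TCACGTGA, which contains it, was found in 7 (19.4% against 1.18%), and the palindrome of 10 bases made by adding a G before and a C after it, a consensus for MiT/TFE factors, in 4 (11.1% against 0.421%): ATP6V1G1, GAA, GALNS and MCOLN1. The related element TCATGTG, searched on both strands, was found in 6 (16.7% against 3.59%). LAMP1, a major glycoprotein of the lysosomal membrane, had 6 copies of CACGTG in its window. The following stretches of 60 bases are written 5′ to 3′ on the gene's strand, with each CACGTG in capitals, for genes of every group.
ATP6V1G1 (chr9:114587684-114587743, plus strand): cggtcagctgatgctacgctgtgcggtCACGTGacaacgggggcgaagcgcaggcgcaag
ATP6V0D1 (chr16:67481184-67481243, minus strand): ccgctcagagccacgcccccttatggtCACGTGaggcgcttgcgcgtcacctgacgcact
CTSD (chr11:1763942-1764001, minus strand): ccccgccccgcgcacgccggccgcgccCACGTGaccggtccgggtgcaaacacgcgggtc
CTSA (chr20:45891266-45891325, plus strand): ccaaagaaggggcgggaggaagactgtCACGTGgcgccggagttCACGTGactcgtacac
GAA (chr17:80101478-80101537, plus strand): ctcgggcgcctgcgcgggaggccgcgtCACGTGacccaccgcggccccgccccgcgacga
CLCN7 (chr16:1475043-1475102, minus strand): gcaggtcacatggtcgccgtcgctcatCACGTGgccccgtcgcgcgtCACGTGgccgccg
LAMP1 (chr13:113297020-113297079, plus strand): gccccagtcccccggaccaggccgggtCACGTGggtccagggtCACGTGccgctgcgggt

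The first motif of each stretch begins 58 bases before the start in ATP6V1G1, 59 in ATP6V0D1, 47 in CTSD, 42 in CTSA, 76 in GAA, 47 in CLCN7 and 192 in LAMP1. Ratios of genes with and without the motif were then set side by side. In SK-MEL-28, 9 of the 13 listed genes with CACGTG were above 0 and the median log2 ratio was 0.17, from -0.18 to 0.54, and 12 of the 21 without it were above 0, with a median of 0.10, from -0.34 to 0.78. In A375, 12 of the 13 with the motif were above 0, with a median of 0.19, and 15 of the 21 without it, with a median of 0.20. A match describes these letters in the window, and binding was not measured.

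The V-ATPase was the most uniform group. With siLINC00622, 13 of its 14 genes were higher in SK-MEL-28 (median log2 ratio 0.24) and 14 of 14 in A375 (median 0.31), and their summed level was 2625 against 3137 CPM in SK-MEL-28 cells and 1076 against 1327 CPM in A375. At an unadjusted p under 0.05 in the edgeR fit, 10 of the 14 were higher (7.41% of all genes) and 0 lower (7.11%), and above 0 were 49.5% of all genes for SK-MEL-28 and 50.7% for A375. The lowest adjusted p in the group was 0.101.

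All 8 subunits of the V1 sector were higher in both lines, each with a counting interval above 0 (11% of all genes had both intervals above 0). ATP6V1A, the catalytic subunit that binds ATP, was at 185 CPM with siNC and 241 CPM with siLINC00622 in SK-MEL-28, and at 115 and 172 CPM in A375. Its log2 ratio was 0.38 (0.33 to 0.43) in SK-MEL-28 cells and 0.56 (0.50 to 0.62) in A375, the largest of the group in A375, and edgeR gave an adjusted p of 0.101. ATP6V1F, a subunit of the central stalk, was at 75.9 and 104 CPM in SK-MEL-28, a ratio of 0.46 (0.38 to 0.53), and at 26.9 and 34.2 CPM in A375, a ratio of 0.33 (0.20 to 0.45). The stalk subunit ATP6V1G1, whose promoter stretch is printed above, had ratios of 0.45 and 0.31.

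ATP6V1C1, which joins the V1 sector to V0, was at 353 and 482 CPM in SK-MEL-28 cells and at 86.3 and 103 CPM in A375, with ratios of 0.45 and 0.23. ATP6V1E1, a peripheral stalk subunit, had the smaller ratio in the other line, 0.15 in SK-MEL-28 against 0.40 in A375, with 333 and 369 CPM in SK-MEL-28 cells and 77.4 and 103 CPM in A375. ATP6V1B2, the second nucleotide-binding subunit, showed the smallest difference of the V1 sector. It was at 454 and 480 CPM in SK-MEL-28 cells and at 87.1 and 94.4 CPM in A375, with ratios of 0.08 and 0.10. ATP6V1D and ATP6V1H lay between these, with ratios from 0.21 to 0.36 over both lines.

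In the membrane sector, all 4 measured V0 genes were higher in both lines. ATP6V0D1, the subunit at the junction of the sectors, had ratios of 0.40 and 0.30 in SK-MEL-28 cells and A375, and the small subunit ATP6V0E1 had 0.25 and 0.31. The large membrane subunit ATP6V0A1 had 0.35 in SK-MEL-28 cells and 0.09 in A375. ATP6V0B, part of the proton-carrying ring, had 0.17 and 0.04, and its interval in A375 reached from -0.02 to 0.10. Of the accessory proteins, ATP6AP1 had 0.23 and 0.32, while ATP6AP2, also known as the prorenin receptor, was level in SK-MEL-28 at -0.01 (-0.07 to 0.06, and above 0 under DESeq2 size factors) and at 0.29 in A375.

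**Figure D2:**
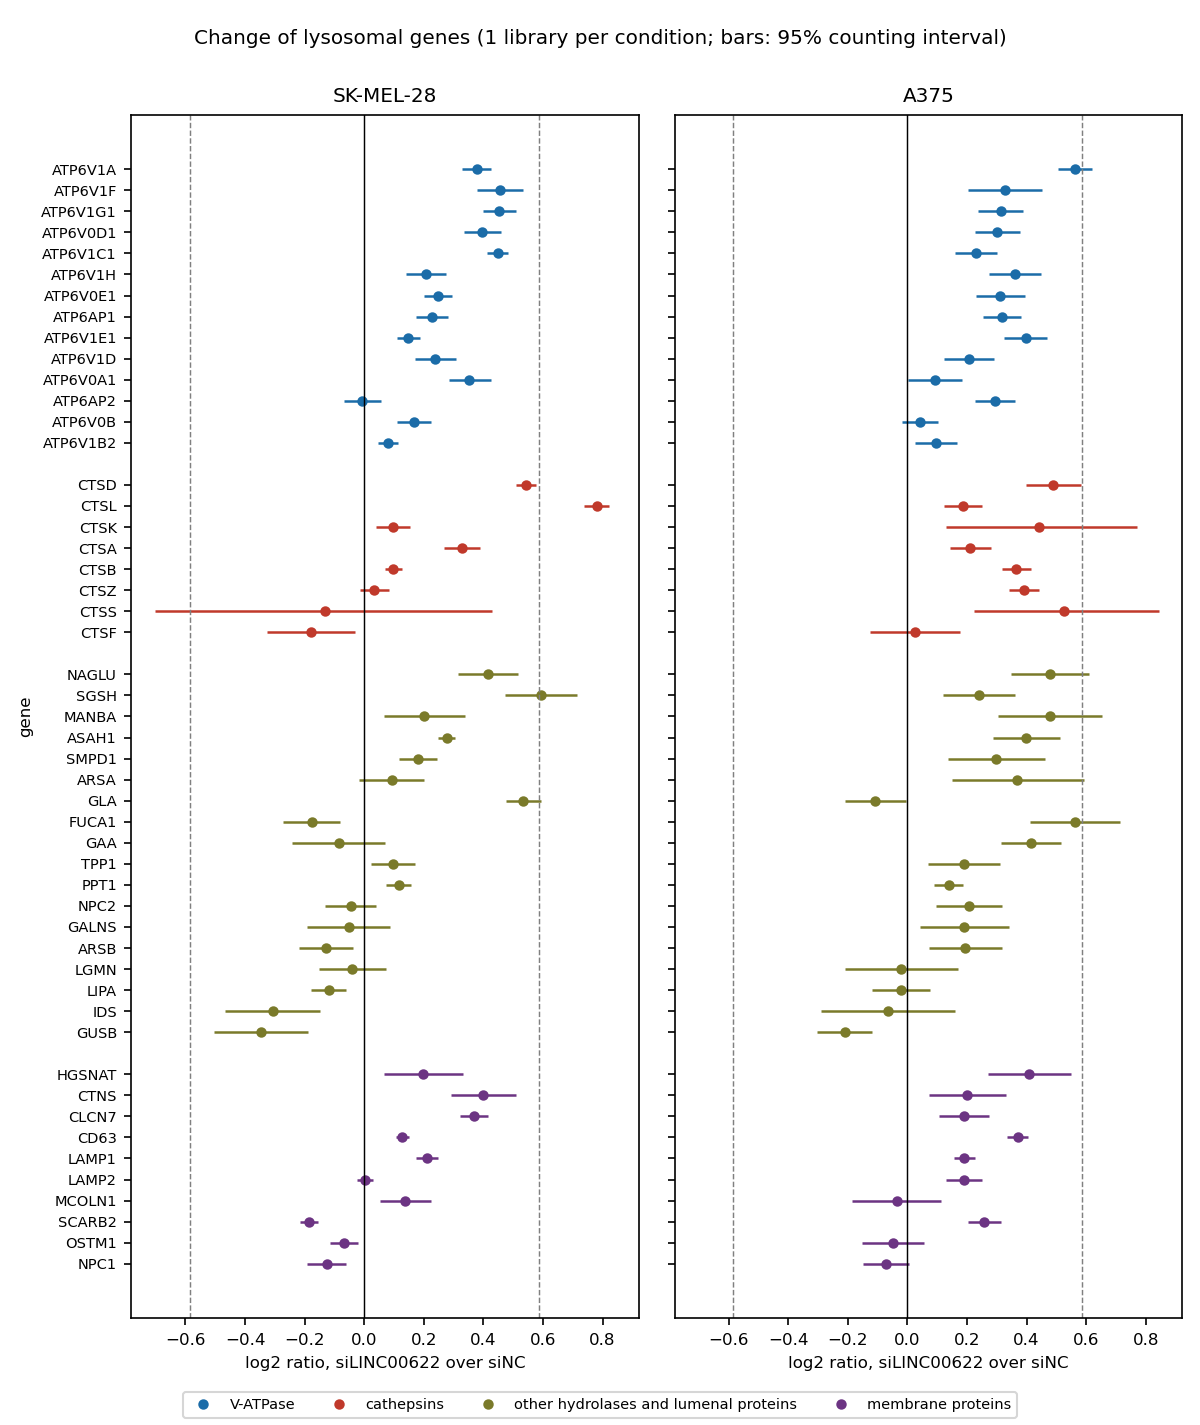
Log2 ratio of siLINC00622 over siNC for each of the 50 lysosomal genes (rows, ordered within each group by the mean of both lines) in SK-MEL-28 (left) and A375 (right). Bars are 95% counting intervals and dashed lines mark 1.5-fold, which CTSL and SGSH pass in SK-MEL-28 and none passes in A375.

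Cathepsins are the main lysosomal proteases. In SK-MEL-28, 6 of 8 were higher with siLINC00622 (median 0.10), and in A375 8 of 8 were (median 0.38). At an unadjusted p under 0.05, edgeR gave 4 of the 8 as higher (7.41% of all genes) and 0 as lower (7.11%). CTSD, the aspartic protease cathepsin D, had the largest mean ratio of the group. It was at 380 and 553 CPM in SK-MEL-28 cells and at 46.4 and 66.2 CPM in A375, with log2 ratios of 0.54 (0.51 to 0.58) and 0.49 (0.40 to 0.58). In GENCODE 29 an annotated gene on the same strand, ENSG00000250644, shares 41.7% of its exon length and had 0.00947 times its counts. The edgeR log2 fold change over both lines was 0.53, with an adjusted p of 0.0668.

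CTSL, the cysteine protease cathepsin L, had the largest log2 ratio of all 50 genes, 0.78 (0.74 to 0.82) in SK-MEL-28, where it was at 228 CPM with siNC and 391 CPM with siLINC00622. In A375 it was at 105 and 122 CPM, a ratio of 0.19 (0.12 to 0.25). The counting intervals of the lines do not overlap, and whether the lines differ was not tested. CTSA, which protects other lysosomal enzymes and acts as a carboxypeptidase, had ratios of 0.33 and 0.21.

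Several cathepsins showed the larger ratio in A375. CTSB, a cysteine protease of high level in both lines, was at 571 and 611 CPM in SK-MEL-28 cells and at 165 and 215 CPM in A375, with ratios of 0.10 and 0.37. CTSK, the collagen-degrading cathepsin of bone-resorbing cells, was at 152 and 163 CPM in SK-MEL-28 but at 4.02 and 5.57 CPM in A375, where its ratio of 0.44 rested on 135 and 213 counts (0.13 to 0.77). CTSZ had ratios of 0.03 and 0.39. CTSS rested on the fewest counts, 57 and 53 in SK-MEL-28 cells and 140 and 234 in A375, with ratios of -0.13 (-0.70 to 0.43) and 0.53 (0.22 to 0.84). CTSF was the lowest of the group over both lines, with 784 and 708 counts in SK-MEL-28 but 665 and 782 in A375, and ratios of -0.18 and 0.02.

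The other hydrolases and lumenal proteins were less uniform. In SK-MEL-28, 9 of the 18 were higher and 9 lower, with a median log2 ratio of 0.03, and in A375 13 were higher and 5 lower, with a median of 0.20. The edgeR fit gave 5 as higher (7.41% of all genes) and 1 as lower (7.11%) at an unadjusted p under 0.05, with a lowest adjusted p of 0.121. The counting interval lay above 0 for 8 of the 18 in SK-MEL-28 (22.9% of all genes) and for 13 in A375 (23.8%), and below 0 for 5 (24%) and 2 (22%).

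Among the glycosidases, NAGLU, which removes N-acetylglucosamine from heparan sulfate, was at 43.5 and 57.9 CPM in SK-MEL-28 cells and at 22.8 and 32.3 CPM in A375, with ratios of 0.41 (0.31 to 0.52) and 0.48 (0.35 to 0.61). MANBA, the lysosomal beta-mannosidase, had 0.20 and 0.48. GUSB, the beta-glucuronidase, was the lowest of the 50 over both lines. It was at 23.5 and 18.5 CPM in SK-MEL-28 cells and at 56.3 and 49.4 CPM in A375, with ratios of -0.34 (-0.50 to -0.19) and -0.21 (-0.30 to -0.12), and edgeR's adjusted p was 0.310.

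Of the remaining glycosidases, GLA, the alpha-galactosidase that degrades globotriaosylceramide, was at 126 and 182 CPM in SK-MEL-28 cells and at 44.9 and 42.3 CPM in A375, with ratios of 0.53 (0.48 to 0.59) and -0.11 (-0.21 to -0.01). FUCA1, the alpha-fucosidase, lay the other way, at 59.9 and 53.0 CPM in SK-MEL-28 cells and at 17.1 and 25.6 CPM in A375, with ratios of -0.18 (-0.27 to -0.08) and 0.56 (0.41 to 0.71). GAA, which degrades glycogen, had -0.08 (-0.24 to 0.07) and 0.41 (0.32 to 0.51). Of the 6 glycosidases, 3 were higher in SK-MEL-28 cells while 4 were higher in A375 cells.

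SGSH, the heparan sulfate sulfamidase, was the second gene past 1.5-fold in SK-MEL-28, at 30.1 CPM with siNC and 45.3 CPM with siLINC00622, a log2 ratio of 0.59 (0.47 to 0.71). In A375 it was at 29.2 and 35.0 CPM, a ratio of 0.24 (0.12 to 0.36). Its interval in SK-MEL-28 includes 1.5-fold, and it fell short of 1.5-fold after scaling by library totals and in the deposited FPKM. Of the other sulfatases, ARSA, which acts on sulfatide, had 0.09 and 0.37, ARSB, which acts on dermatan sulfate, had -0.13 and 0.19, GALNS had -0.05 and 0.19, and IDS, the iduronate sulfatase, had -0.31 and -0.06.

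Enzymes of heparan sulfate breakdown, grouped here after their values were seen, were NAGLU, SGSH, HGSNAT, IDS and GUSB. NAGLU, SGSH and HGSNAT, which act on its glucosamine residues, were higher in both lines, while IDS and GUSB were lower in both.

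Of the 4 lipid hydrolases, 3 were higher in both lines. ASAH1, acid ceramidase, was at 584 and 707 CPM in SK-MEL-28 cells and at 31.3 and 41.9 CPM in A375, with ratios of 0.28 (0.25 to 0.30) and 0.40 (0.29 to 0.51). SMPD1, acid sphingomyelinase, had 0.18 and 0.30, and the palmitoyl-protein thioesterase PPT1 had 0.12 and 0.14. LIPA, the acid lipase for cholesteryl esters and triglycerides, had -0.12 and -0.02. The peptidase TPP1 had 0.10 and 0.19, while the legumain gene LGMN had -0.04 and -0.02 with intervals on both sides of 0. NPC2, which carries cholesterol in the lumen, had -0.04 and 0.21.

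Of the 10 membrane proteins, 7 were higher in each line, with medians of 0.13 in SK-MEL-28 cells and 0.19 in A375, and edgeR gave 5 as higher (7.41% of all genes) and 0 as lower (7.11%) at an unadjusted p under 0.05 (lowest adjusted p 0.220). HGSNAT, the acetyltransferase of heparan sulfate, was at 27.7 and 31.8 CPM in SK-MEL-28 cells and at 21.1 and 28.4 CPM in A375, with ratios of 0.20 and 0.41. CTNS, the cystine exporter, was at 38.5 and 50.8 CPM in SK-MEL-28 cells and at 25.1 and 29.2 CPM in A375, with 0.40 and 0.20. CLCN7, the chloride-proton exchanger, was at 216 and 278 CPM in SK-MEL-28 cells and at 60.1 and 69.5 CPM in A375, with 0.37 and 0.19.

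OSTM1, the partner subunit of CLCN7, lay below 0 in both lines, with 242 and 231 CPM in SK-MEL-28 cells and 42.6 and 41.8 CPM in A375, and ratios of -0.07 (-0.11 to -0.02) and -0.05 (-0.15 to 0.05). The abundant glycoproteins also differed from each other. LAMP1 had 0.21 and 0.19, whereas LAMP2 was level in SK-MEL-28, with 672 and 674 CPM and a ratio of 0.00 (-0.02 to 0.03) that turned below 0 with library totals or FPKM, and had 118 and 136 CPM and a ratio of 0.19 in A375. The tetraspanin CD63 had 0.13 and 0.37.

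SCARB2, the receptor that carries glucocerebrosidase to the lysosome, was lower in SK-MEL-28, with a ratio of -0.19 (-0.22 to -0.15), and higher in A375, with 0.26 (0.20 to 0.31). NPC1, which exports cholesterol together with NPC2, was the lowest of the group over both lines, at 120 and 110 CPM in SK-MEL-28 cells and 75.9 and 73.3 CPM in A375, with -0.13 and -0.07. The calcium channel gene MCOLN1 had 0.14 and -0.04.

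The difference between the lines was larger than that between the treatments. In the edgeR fit with treatment as a term, 42 of the 50 genes were higher in SK-MEL-28 (33.3% of all genes were called in this direction) and 3 were higher in A375 (34.4%) at an adjusted p under 0.05. The median log2 fold change of A375 over SK-MEL-28 was -1.08, against 0.04 over all genes. Past 2-fold were 26 genes on the side of SK-MEL-28 (18.1% of all genes) and 3 on that of A375 (20%). For 44 genes both SK-MEL-28 libraries lay above both A375 libraries (40% of all genes), for 3 they lay below (42.2%), and for 3 the lines overlapped. Scaling by library totals moved the median of all genes to 0.21 and that of the lysosomal genes to -0.91, and then 39 genes were called higher in SK-MEL-28 cells and 3 in A375. The labels do not say whether the libraries of a line came from separate cultures, so these p-values measure the spread between libraries only.

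**Figure D3:**
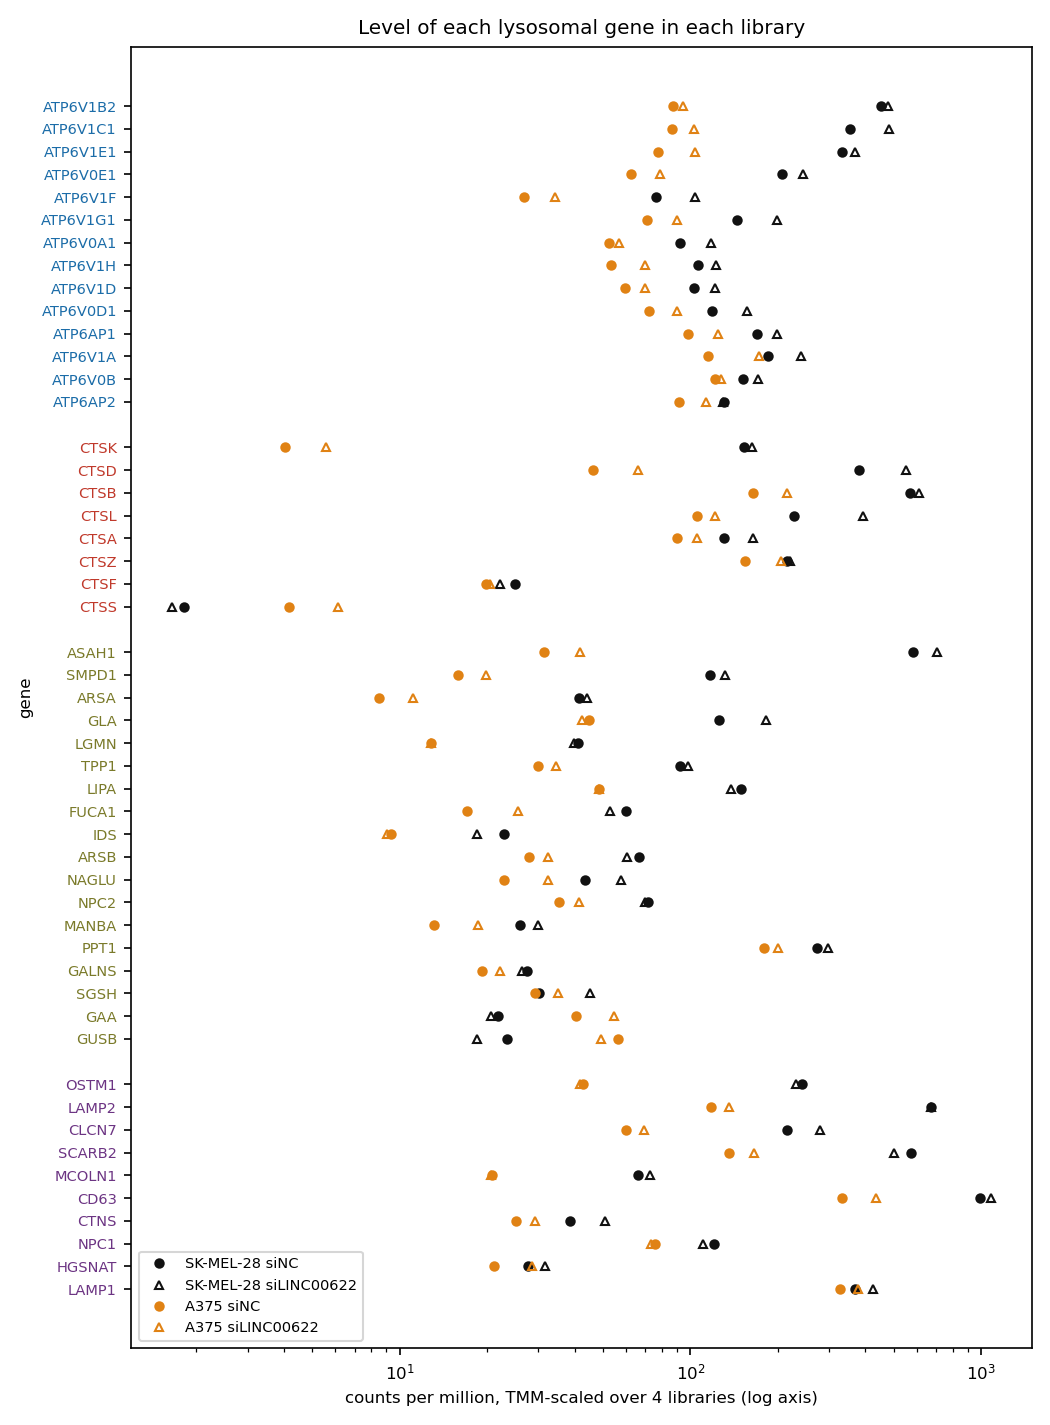
Level of each of the 50 lysosomal genes in each library, in TMM-scaled CPM on a log axis. Filled circles are siNC and open triangles siLINC00622 libraries, SK-MEL-28 in black and A375 in orange. The black symbols lie to the right of the orange ones for 44 genes and to the left for CTSS, GAA and GUSB.

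All 14 V-ATPase genes were called higher in SK-MEL-28 (33.3% of all genes), from 1.27-fold (ATP6AP2) to 5.14-fold (ATP6V1B2, edgeR adjusted p = 1.1e-06). ATP6V1C1 was 4.37-fold and ATP6V1E1 3.91-fold higher. The catalytic subunit ATP6V1A had a log2 fold change of -0.58 (edgeR adjusted p = 0.0012), so the V1 subunits that share 1 sector differed between the lines by unlike amounts.

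Cathepsins spanned the widest range. CTSK had a log2 fold change of A375 over SK-MEL-28 of -5.04 (edgeR adjusted p = 3.8e-07). CTSD was 8.24-fold higher in SK-MEL-28 (-3.04, edgeR adjusted p = 4.9e-07) and CTSB 3.13-fold. CTSS was 2.93-fold higher in A375 (edgeR adjusted p = 0.0011) at low counts. CTSF and CTSZ were not called, with log2 fold changes of -0.22 and -0.29.

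Of the other hydrolases and lumenal proteins, 15 of 18 were called higher in SK-MEL-28 (33.3% of all genes) and 2 in A375 (34.4%). ASAH1 differed by 17.7-fold (log2 fold change -4.15, edgeR adjusted p = 2.6e-07), SMPD1 by 6.99-fold and ARSA by 4.38-fold. Their products break down the sphingolipids ceramide, sphingomyelin and sulfatide, but this grouping was made after the values were seen, and GALC, a galactosylceramidase outside the 50 genes, lay the other way with 5 and 6 counts in SK-MEL-28 against 497 and 663 in A375. ARSA was at 41.5 and 44.2 CPM in the SK-MEL-28 libraries and at 8.50 and 11.1 CPM in those of A375, and SMPD1 was at 116 and 132 CPM against 15.8 and 19.8 CPM. GUSB (2.54-fold) and GAA (2.22-fold) were higher in A375, and SGSH was not called. Of the membrane proteins, OSTM1 was 5.58-fold, LAMP2 5.30-fold and CLCN7 3.78-fold higher in SK-MEL-28, whereas LAMP1 and HGSNAT were not called. LAMP1 was thus near equal in lines that differed in LAMP2, at 367 and 425 CPM in SK-MEL-28 cells and 326 and 378 CPM in A375.

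Levels were compared between genes by FPKM, which is per length. CD63 ranked first of the 50 in every library, at 387 and 419 FPKM in SK-MEL-28 cells and 147 and 188 FPKM in A375. It was followed by ATP6V0E1, at 121 and 142 FPKM, in SK-MEL-28, and by LAMP1, at 61.0 and 69.2 FPKM, in A375. The lowest were CTSS in SK-MEL-28 (0.25 and 0.23 FPKM) and CTSK in A375 (0.511 and 0.693 FPKM). The deposited FPKM used a fixed length per gene that for some genes exceeds the exons of GENCODE 29. Examples are CTSZ (19.4 against 2.04 kb) and CTSK (8.45 against 1.89 kb). The order of the genes, with the last place of CTSK in A375, therefore depends on this length.

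Pigment cell genes also differed between the lines. Of 8 melanocyte markers, 8 were called higher in SK-MEL-28 (33.3% of all genes), among them PMEL with 114297 and 142181 counts against 257 and 314 in A375, while TYR (17 and 22 counts) and TYRP1 (13 and 6 counts) were at low counts in A375. MITF had 18955 and 18299 counts in SK-MEL-28 cells and 1182 and 1288 in A375, a log2 fold change of -4.09. S100B, at 8775 and 5970 counts in SK-MEL-28 cells and 313 and 552 in A375, had log2 ratios of siLINC00622 over siNC of -0.59 and 0.61. TFE3 was the other way between the lines, with 1816 and 1656 counts against 3979 and 4625. The part of these genes in the difference of the lysosomal genes was not tested.

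With siLINC00622 the MiT/TFE genes gave no common direction. MITF had log2 ratios of -0.08 in SK-MEL-28 cells and -0.09 in A375, TFE3 had -0.16 and 0.01, and TFEB, at low counts, had 0.96 in SK-MEL-28 (70 and 141 counts, 0.56 to 1.41) and 0.13 in A375 (41 and 52 counts, -0.48 to 0.76). None was called by edgeR (lowest adjusted p 0.348). Of other cell types, 0 of 6 macrophage markers were listed, and only 2 of the keratinocyte and 1 of the fibroblast markers searched for. The keratinocyte gene KRT14 had 6 and 2 counts in SK-MEL-28 cells and 494 and 504 in A375. Of the 2 keratinocyte genes, edgeR called 1 higher in A375 (34.4% of all genes) and 0 higher in SK-MEL-28 (33.3%). The only listed fibroblast marker, LUM, had 803 and 892 counts in SK-MEL-28 cells and 187 and 372 in A375, a ratio of 0.78 in A375. Its part in the A375 values was not tested.

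Other lysosomal genes, which are not among the 50, were also counted. In SK-MEL-28, 23 of 37 were above 0 (median 0.06) and in A375 26 of 38 (median 0.15), and edgeR called 0 of 38 higher (0.197% of all genes) and 1 lower (0.251%). At an unadjusted p under 0.05, edgeR gave 8 as higher (7.41% of all genes) and 2 as lower (7.11%). The one called was GM2A, the activator of ganglioside breakdown, with log2 ratios of -1.31 and -0.77 (edgeR adjusted p = 0.0483), which also passed the criteria of the study in SK-MEL-28. SLC17A5, the sialic acid exporter, lay opposite, with 0.94 and 0.54, TPCN1, a cation channel, had 0.49 and 0.47, and ACP5, an acid phosphatase, had 0.42 and 0.40. TMEM192 had 0.35 and 0.36, and CTSV, at 55 and 39 counts in A375, had -0.02 and -0.68.

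Of the other V-ATPase genes, mostly isoforms of restricted tissues, 3 of 8 were above 0 in SK-MEL-28 (median -0.08) and 5 of 8 in A375 (median 0.21). In each line 5 of the 8 counting intervals spanned 0. Of all genes, 8193 of 15442 did so in SK-MEL-28 and 8674 of 16021 in A375. ATP6V0D2, an isoform of ATP6V0D1, had 397 and 808 counts in SK-MEL-28 (ratio 0.99, 0.82 to 1.17) and 5 and 15 counts in A375. ATP6V0A4 had -0.91 and 0.64 at 30 to 140 counts. Of 7 genes that sort enzymes to the lysosome, 4 were higher in both lines (30.9% of all genes) and 3 had opposite directions, with medians of 0.15 in SK-MEL-28 cells and 0.09 in A375, and edgeR called 1 higher (0.197% of all genes) and 0 lower. The gene called was IGF2R, the receptor for mannose 6-phosphate on newly made hydrolases, at 22479 and 33800 counts in SK-MEL-28 cells and 8265 and 13821 in A375, with ratios of 0.56 (0.53 to 0.58) and 0.53 (0.49 to 0.57), and an edgeR adjusted p of 0.0465.

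**Figure D4:**
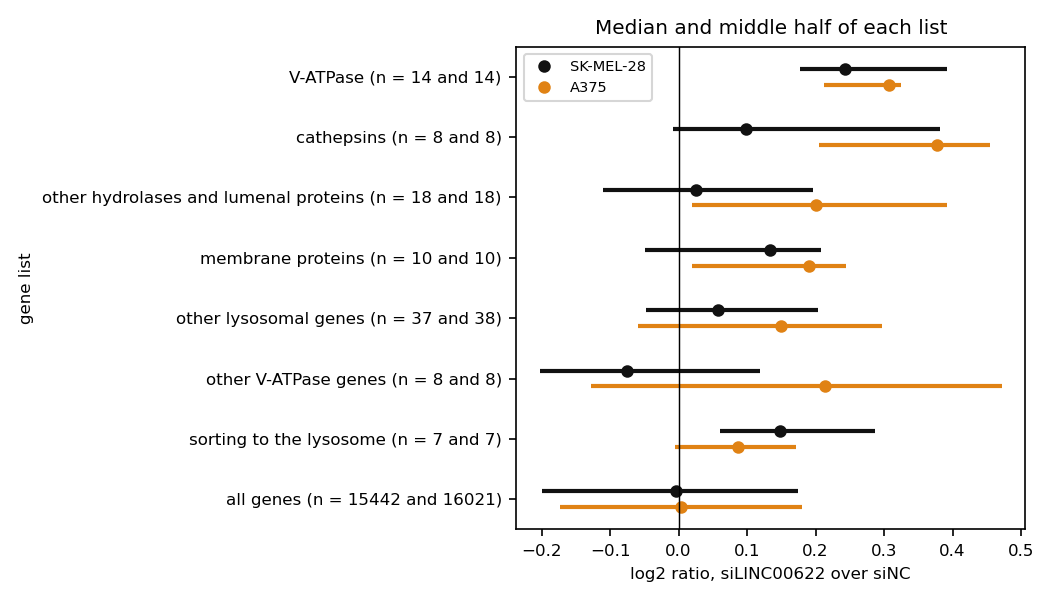
Median log2 ratio of siLINC00622 over siNC (points) and the range from the 25th to the 75th percentile of genes (bars) for each list of genes, SK-MEL-28 in black and A375 in orange. The V-ATPase bars lie above 0 in both lines, and the bars of all genes span 0.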

How the data were processed

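The 4 RNA-Seq libraries were assigned to conditions by the labelled cell line (SK-MEL-28 or A375) and treatment. The authors deposited read counts per gene, unnormalized. The CPM values deposited by the authors are counts divided by the library total, and the FPKM values deposited by the authors are this CPM divided by 1 fixed length per gene. The TPM columns that the authors deposited were not used. The submitters' processing notes name hg19, HISAT, HISAT2, TopHat2 and Bowtie2 without their roles, and the counter, its use of strand and the annotation are not given in the sources used here. PPT1, ATP6V1F and ATP6V1D overlap a gene on the other strand in GENCODE 29, over 23.4%, 23.7% and 6.33% of their exon length, so their counts may hold reads of both. CTSD shares exons with a gene on its own strand.

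Genes with at least 10 counts in 1 library were analysed. Within a line, log2 ratios used TMM scaling and a prior count of 2, with 95% Clopper-Pearson intervals on the counts. Over both lines, edgeR 4.0.16 in R 4.3.3 fitted cell line and treatment by quasi-likelihood, paired by cell line because each line received both treatments, and p-values were adjusted by Benjamini-Hochberg over all genes. DESeq2 1.42.0, limma 3.58.1 and other scalings, filters, folds and dispersions were alternatives. The scripts were tested on simulated data.

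The gene members and the other lists were chosen with earlier results of these data known. Values in every library are given for the 2 genes with the highest and the 1 with the lowest mean ratio of each group, those past 1.5-fold, and the 3 per group with the largest difference between lines. Further genes that were given with each library's value were chosen after their values were seen. Promoters came from RefSeq (GRCh38.p14).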

Additional observations from a re-analysis of the deposited data

Results flagged for a closer look

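In 4 of the 50 genes, the log2 ratio of siLINC00622 over siNC had opposite signs in the lines with both counting intervals apart from 0. GLA had 0.53 in SK-MEL-28 cells but -0.11 in A375. FUCA1 had -0.18 against 0.56, ARSB -0.13 against 0.19, and SCARB2 -0.19 against 0.26, in the same order. With 1 library per condition, the difference between the lines was not tested for any of these genes. How many of all genes had opposite signs with both intervals apart from 0 was not counted. Whether 4 of 50 is more or less than usual was therefore not tested. By sign alone, 9 of the 50 were higher only for A375, against 2896 of all 14721 genes. The reverse held for 2 of the 50, against 2670 of all genes.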

How the results depend on the processing

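Of the 2 genes past 1.5-fold in SK-MEL-28, 1 remained with library totals and 1 in the deposited FPKM with a pseudocount of 1. A call at a fold midway between 1 and 1.5 gave, for SK-MEL-28, 14 higher (13.5% of all genes) and 1 lower (16%), and for A375 17 higher (13.4%), and one at 2-fold gave 0 for SK-MEL-28. For the treatment over both lines, where edgeR called 0 of the 50 genes and 33 genes higher and 42 lower of all, DESeq2 called 2 of the 50 and 143 higher and 162 lower of all. Limma-voom called 1 of the 50 and 58 higher and 55 lower of all, edgeR without a filter 1 of the 50 and 57 and 64 of all, and with at least 100 counts 1 of the 50 and 77 and 105 of all. With library totals, an alternative chosen after seeing the data, edgeR called 1 gene higher and 0 lower, and 0 of the 50. The adjusted p of CTSD ranged from 0.000295 (DESeq2) to 0.102 (library totals) in the fits paired by line. Without the cell line as a block, that is with no pairing, 0 genes were called in either direction and 0 of the 50 had an unadjusted p under 0.05, as the spread then includes the difference between lines. In the line comparison, each of the 7 alternative fits called 39 to 43 of the 50 genes higher in SK-MEL-28 and 3 higher in A375, as counts only. The study's criteria passed 108 genes for SK-MEL-28 and 54 for A375, against 442 and 245 at a dispersion of 0.04 and 42 and 28 at 0.16, with 0 of the 50 genes at each dispersion. Median ratios of the 50 stayed between 0.12 and 0.15 in SK-MEL-28 cells and between 0.19 and 0.23 in A375 ones. Of the values of single genes, 606 moved by less than their spread and 44 by more, 42 of these in FPKM. Depth limits CTSS most. No replicate could be left out, as each condition has 1 library.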
